A study of Mus musculus with 12 samples.

Results

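The contractile apparatus of vascular smooth muscle was examined in the inferior vena cava (IVC) through 10 genes, Acta2, Tagln, Myh11, Cnn1, Myocd, Smtn, Lmod1, Des, Myl9 and Mylk, which were listed by symbol. They were 10 of the 55414 genes in the deposited table, and all 10 were among the 15912 genes tested. Poly-A RNA had been sequenced from the IVC of 12 wild-type C57BL/6J mice, described as 10 weeks old, with 1 library per mouse. On postoperative day 7, 6 mice carried an arteriovenous fistula (AVF) between the infrarenal aorta and the IVC, made by needle puncture, and 6 sham-operated mice had undergone the same steps, clamping included, without the puncture. Each group held 3 female and 3 male mice. Whole vessels were sequenced, so that fewer smooth muscle cells and less RNA per smooth muscle cell cannot be told apart in any of the values given here.

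Smooth muscle cells of the vessel wall shorten when myosin slides along actin filaments, which is triggered by phosphorylation of the myosin regulatory light chain. In quiescent veins the cells hold this apparatus ready to control vessel tone, and they are known to be able to lower it and take up a migratory, matrix-producing state after injury or a change in flow. Many contractile genes share a regulatory element, the CArG box, which binds serum response factor, and myocardin is the coactivator that joins serum response factor there in smooth muscle.

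The genes lie on 6 chromosomes (GRCm39). Acta2 is at chr19:34217737-34232990, Tagln at chr9:45840909-45847404, Myh11 at chr16:14012399-14109236, Myocd at chr11:65067387-65160828 and Smtn at chr11:3467520-3490612, all on the minus strand. Cnn1 is at chr9:22010512-22020926, Lmod1 at chr1:135252509-135295907, Des at chr1:75320511-75345223, Myl9 at chr2:156617084-156623579 and Mylk at chr16:34565580-34822790, all on the plus strand. No cluster of neighboring genes is among them.

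CArG boxes were searched by their consensus (CC, then 6 bases that are each A or T, then GG, a pattern that reads the same way on both strands) around the start of the canonical transcript, on the GRCm39 genome with GENCODE M39. Within 2000 bases on either side of the start, 5 of the 10 genes held such a box, against 18.5% of 21770 protein-coding genes. In the 250 bases before the start, 1 of the 10 did, against 1.4% of those genes. The boxes found in these 5 genes are shown, since the CArG box is the element through which myocardin acts. They are in capitals with 10 flanking bases on each side, read 5′ to 3′ on the strand of the gene.
Acta2: gtgtgttttaCCTAATTAGGaaatgctccc
Tagln, before the start: agggtcctgcCCATAAAAGGtttttcccgg
Tagln, after the start: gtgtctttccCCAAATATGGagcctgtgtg
Myh11: gcctcgacttCCTTTTATGGcctgagtggt
Cnn1: agccgccgcgCCTTATAAGGcggccttggg
Myl9: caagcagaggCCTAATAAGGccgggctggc
The Acta2 box lay in intron 1 (chr19:34231688-34231697, minus strand), as did that of Cnn1 (chr9:22011422-22011431, plus strand). The Myl9 box was in exon 1 (chr2:156617223-156617232, plus strand). Of the Tagln boxes, one began 64 bases before the start (chr9:45847459-45847468, minus strand) and the other was in exon 1 (chr9:45847336-45847345). The Myh11 box began 958 bases before the start (chr16:14110185-14110194, minus strand). No exact match was found in these windows for Myocd, Smtn, Lmod1, Des or Mylk. A match is a match of letters only, and no binding was measured here. Only exact matches around the canonical start were searched, so boxes with a deviating base or near other starts are not listed.

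The 250 bases before the start of Tagln (chr9:45847405-45847654, minus strand) are given whole, since no other gene of the list had an exact match in that window, with the box in capitals.
Tagln promoter: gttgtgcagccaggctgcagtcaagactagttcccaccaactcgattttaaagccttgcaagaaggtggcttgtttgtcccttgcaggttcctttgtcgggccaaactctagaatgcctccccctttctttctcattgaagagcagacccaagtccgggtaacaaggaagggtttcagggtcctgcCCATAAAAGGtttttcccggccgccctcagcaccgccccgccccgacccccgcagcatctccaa

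The libraries held 15177881 to 22717423 counts, and the lowest count of any of the 10 genes in any library was 217, for Myocd in female sham 3. Several libraries stood apart in ways that bear on muscle genes. Summed over 12 heart muscle markers, female sham 1 held 1264 CPM and the other 11 libraries 60.4 to 112 CPM, with Myh6, a heart myosin heavy chain, at 408 CPM in female sham 1. In the other 11 libraries Myh6 was at most 0.47 CPM and Myl7 at most 0.055 CPM, while Actc1 alone was at 30.1 to 92.0 CPM. Summed over 12 skeletal muscle markers, female sham 3 held 2003 CPM and the others 12.03 to 106 CPM, with Myh4, a fast myosin heavy chain, at 603 CPM in female sham 3. Hepatocyte markers reached 2986.5 CPM in male AVF 2 and 9428 CPM in female AVF 2, which are the 2 AVF libraries the study set apart, and 1.19 to 6.91 CPM elsewhere. Female AVF 1 held 46.0% ribosomal RNA, and the other libraries 2.39% to 12.6%. Smooth muscle and pericyte markers outside the list of 10 were present in every library, at a summed 1312 to 2440 CPM in sham and 1972.5 to 4381 CPM in AVF. Much of these sums was Rgs5 alone, at a mean of 757 CPM in sham and 1990 CPM in AVF.

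All 10 genes were expressed in every vein. Per kilobase of exon, Acta2, smooth muscle actin, was highest in sham veins at 394 ± 99.7 normalized CPM per kilobase (SD, n = 6), followed by Tagln, the actin-binding protein SM22, at 358 ± 76.7. The ranges of this pair overlapped over most of their width. Next came Myl9, the regulatory light chain, at 232 ± 48.1, and Myh11, the smooth muscle myosin heavy chain, at 169 ± 42.7. Below a gap that no library bridged stood Cnn1, calponin, at 56.5 ± 15.1 and Mylk, the kinase of the light chain, at 53.3 ± 13.5, which did not differ beyond their spread. Lmod1, leiomodin, was at 32.6 ± 8.42. Des, desmin, at 11.998 ± 6.50 and Smtn, smoothelin, at 11.1 ± 2.57 did not differ beyond their spread either. Myocd, myocardin, was lowest at 2.52 ± 0.73, with no library above 3.45. In AVF the order was the same but for the first pair, in which Tagln, at 456.5 ± 117, stood beside Acta2, at 450.1 ± 128. Exon length joins the exons of all annotated transcripts of a gene (5144 bases for Des). The order between genes depends on these lengths as well.

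**Figure D1:**
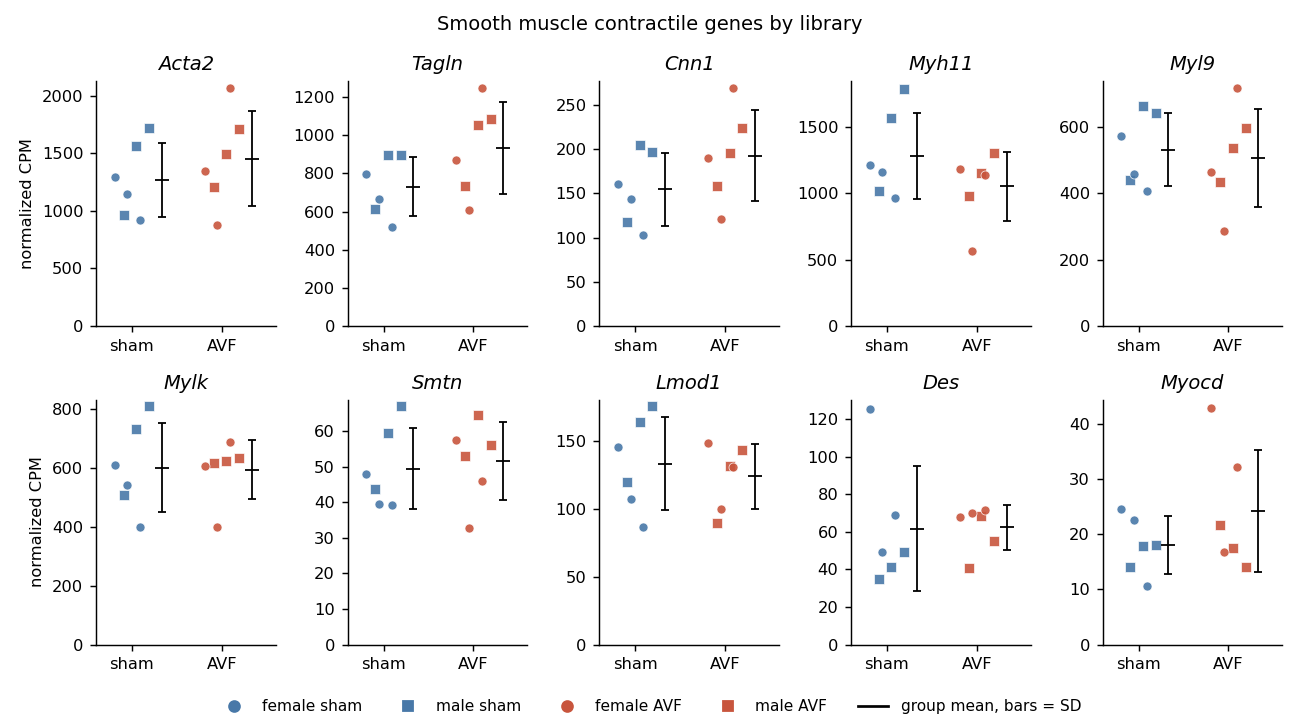
Normalized CPM of each of the 10 contractile genes (linear axes from 0) in the 6 sham and 6 AVF libraries, with circles for female and squares for male mice. The black bars give the mean and SD of 6 libraries, and the AVF and sham points overlap for every gene.

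The comparison of AVF with sham asks whether the contractile program of the vein differs a week after it was joined to the artery. The quasi-likelihood test of edgeR was run on all 15912 genes and its p-values were adjusted together. Of the 10 contractile genes, 0 passed at an adjusted p under 0.05, against 13.8% of all tested genes, and 0 had an unadjusted p under 0.05, against 31.6% of all. With a change of at least 2-fold as well, 4.77% of all tested genes passed. The exact test of edgeR passed 0 as well, against 12.6% of all, with 0 at an unadjusted p under 0.05, against 23.9%. DESeq2 passed 0, against 21.4% of all, with 0 at an unadjusted p under 0.05, against 33.3%. In 0 of the 10 did the AVF and sham libraries not overlap, against 6.06% of all tested genes (4.55% higher and 1.51% lower in AVF). The median log2 fold change of the 10 was 0.04, beside -0.01 over all tested genes, with 6 of the 10 above 0. The 95% intervals below show which sizes of change these 12 libraries leave possible.

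The genes of the thin filament were on the high side of sham or close to it. Acta2 ranged from 878 over a median of 1421 to 2069 normalized CPM in AVF, and from 923.5 over 1223 to 1718 in sham. The log2 fold change was 0.19 (SE 0.21, 95% interval -0.26 to 0.65, adjusted p = 0.569), and 0.06 without female AVF 3. Tagln was at 608 to 1248 CPM in AVF with a median of 962, and at 518 to 897 in sham with a median of 732. Its highest values, in female AVF 3, male AVF 3 and male AVF 2, were above every sham library, while female AVF 2 was below the sham median. Its log2 fold change of 0.35 (SE 0.19, interval -0.06 to 0.76) had an unadjusted p of 0.0866 and an adjusted p of 0.226, the lowest of the 10. Cnn1, which binds actin and restrains the myosin ATPase, ran from 121 over 192 to 269 CPM in AVF and from 103 over 152 to 205 in sham. Its log2 fold change was 0.32 (SE 0.21, interval -0.12 to 0.77, adjusted p = 0.309). For both Tagln and Cnn1 the interval included no change and also a rise of more than 1.5-fold, so that a moderate rise was not excluded at this spread.

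Smtn, an actin-binding protein of contractile smooth muscle, and Lmod1, which nucleates actin filaments, were close to sham. Smtn was at 32.6 to 64.4 CPM in AVF (median 54.4) and 39.1 to 67.1 in sham (median 45.8), with a log2 fold change of 0.06 (SE 0.17, interval -0.32 to 0.44). Lmod1 was at 89.9 to 149 CPM in AVF (median 131) and 87.0 to 176 in sham (median 133), with a log2 fold change of -0.11 (SE 0.18, interval -0.49 to 0.28). Their adjusted p-values were 0.843 and 0.729.

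The myosin genes were level with sham or below it. Myh11 ran from 565 over 1145 to 1305 CPM in AVF and from 961 over 1184 to 1784.5 in sham. The 2 highest sham libraries, male sham 2 and male sham 3, were above every AVF library, and female AVF 2 was below every sham library. The log2 fold change was -0.28 (SE 0.21, interval -0.73 to 0.16, adjusted p = 0.371). Myl9 was at 287 to 717 CPM in AVF (median 500.3) and 406 to 663 in sham (median 516), with a log2 fold change of -0.07 (SE 0.20, interval -0.50 to 0.36, adjusted p = 0.844). Mylk was at 398 to 687 CPM in AVF (median 620.4) and 398 to 812 in sham (median 575), with a log2 fold change of -0.02 (SE 0.17, interval -0.39 to 0.36, adjusted p = 0.965). Among the AVF libraries Mylk was tightly grouped, from 605 to 687 CPM in 5 of them, with female AVF 2 alone at 398.

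Des encodes the intermediate filament protein that ties contractile units together in smooth, heart and skeletal muscle. It ran from 41.0 over 68.2 to 71.6 CPM in AVF and from 34.8 over 49.5 to 125.7 in sham, and its log2 fold change was 0.02 (SE 0.28, interval -0.59 to 0.62, adjusted p = 0.977). The 2 highest sham values were 125.7 CPM in female sham 1 and 69.2 CPM in female sham 3, which are the libraries with heart muscle and with skeletal muscle RNA. The other 4 sham libraries lay between 34.8 and 49.5 CPM, and 5 of the 6 AVF libraries lay above them. Without these 2 sham libraries the log2 fold change of Des was 0.53 (SE 0.17), with an unadjusted p of 0.00886 and an adjusted p of 0.0847 by edgeR's quasi-likelihood test. The part of striated muscle RNA in the Des values was not tested.

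Myocd, the coactivator known to drive many contractile genes, had the lowest counts and the widest spread in AVF. It was at 14.05 to 42.7 CPM in AVF (median 19.6) and 10.5 to 24.6 in sham (median 18.0). Female AVF 1 at 42.7 and female AVF 3 at 32.1 CPM were above every sham library, and the other 4 AVF libraries lay within the sham range. The log2 fold change was 0.42 (SE 0.28, interval -0.19 to 1.03, adjusted p = 0.331), and 0.21 without female AVF 1.

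**Figure D2:**
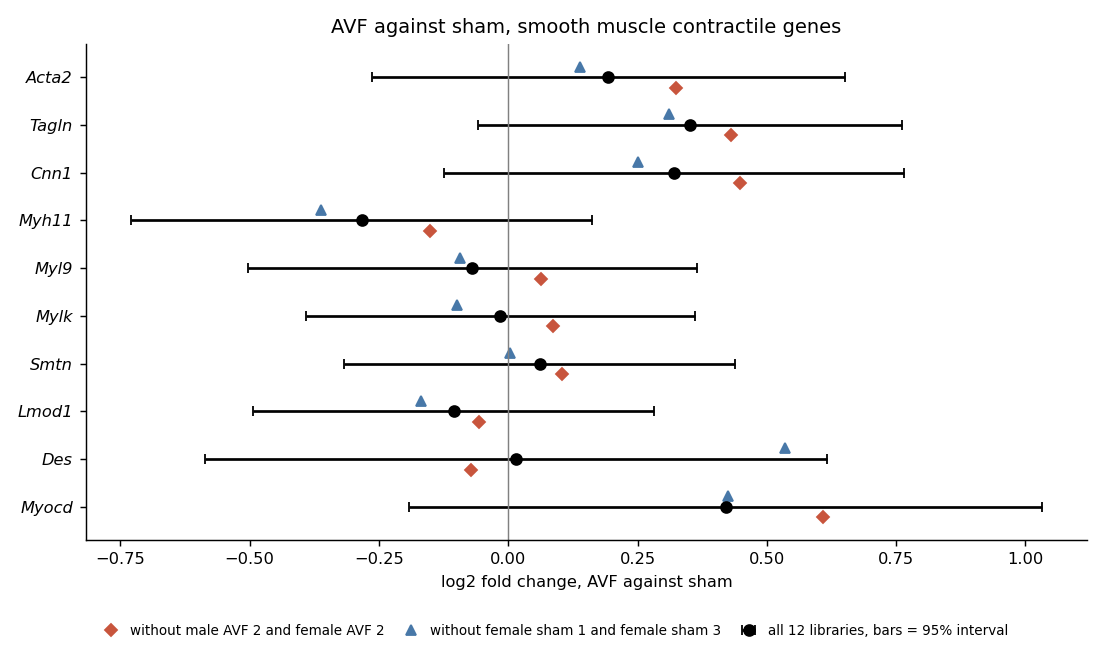
Log2 fold change of AVF against sham for each contractile gene, with the 95% interval over all 12 libraries (black), and the value without male AVF 2 and female AVF 2 (diamonds) or without female sham 1 and female sham 3 (triangles). Every interval includes 0, and Des is the gene that moves most between the sets of libraries.

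Leaving out male AVF 2 and female AVF 2, the libraries with liver RNA, raised the log2 fold change of Tagln to 0.43 (SE 0.19, unadjusted p = 0.0424, adjusted p = 0.172 by edgeR) and that of Cnn1 to 0.45 (SE 0.20, unadjusted p = 0.0482, adjusted p = 0.185 by edgeR). With these 10 libraries 0 of the 10 genes passed, against 7.68% of all tested genes (5.72% higher and 1.96% lower), and 2 had an unadjusted p under 0.05, against 26.5% of all. Without female sham 1 and female sham 3, chosen after the values were seen, 0 of the 10 passed, against 6.19% of all (4.55% higher and 1.64% lower). Des, whose 2 highest sham values are in these libraries, was the 1 gene with an unadjusted p under 0.05, against 25.7% of all.

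Within a library, some pairs of these genes stood in a different proportion to each other in AVF and in sham. The Acta2 to Myh11 ratio of counts, which does not depend on the normalization between libraries, was 1.23, 1.2996 and 1.31 in the male AVF libraries and 1.14, 1.55 and 1.81 in the female ones. In sham veins it was 0.949, 1.00 and 0.962 in males and 1.07, 0.991 and 0.961 in females. Every AVF library was above every sham library. The mean log2 ratio was 0.46 ± 0.24 in AVF and -0.02 ± 0.06 in sham (SD, n = 6 each), a difference of 0.48 or 1.39-fold. An exact two-sided permutation test gave p = 0.00216, which is the smallest that 6 against 6 libraries allow, and this was the only ratio tested. Without male AVF 2 and female AVF 2 the difference was 0.45 (exact permutation p = 0.00476), and without female sham 1 and female sham 3, chosen after the values were seen, it was 0.50 (exact permutation p = 0.00952). Neither Acta2 nor Myh11 passed by itself, and the ratio does not say which of them moved.

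The same ratio for other genes, computed after these values were seen and without a test, separated part of the list. Tagln to Myh11 ran from 0.736 to 1.09 in AVF and from 0.502 to 0.658 in sham. Cnn1 to Myh11 ran from 0.161 to 0.236 in AVF and from 0.108 to 0.133 in sham. With Acta2, that made 3 of the 9 ratios to Myh11 higher in AVF with no overlap, against 4.63% of 15369 genes with a count in every library, and 0 lower, against 0.0651%. The other 6 ratios to Myh11, those of Myocd, Smtn, Lmod1, Des, Myl9 and Mylk, overlapped. Relative to Acta2, Myh11 was lower in AVF with no overlap, as above. Myl9 was too, at 0.327 to 0.360 in AVF and 0.374 to 0.458 in sham, which made 2 of 9, against 0.599% of all genes lower. The ratios of Tagln and of Cnn1 to Acta2 overlapped, with differences of 0.16 and 0.14 on the log2 scale. These ratios share a numerator or a denominator and so are not separate observations.

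**Figure D3:**
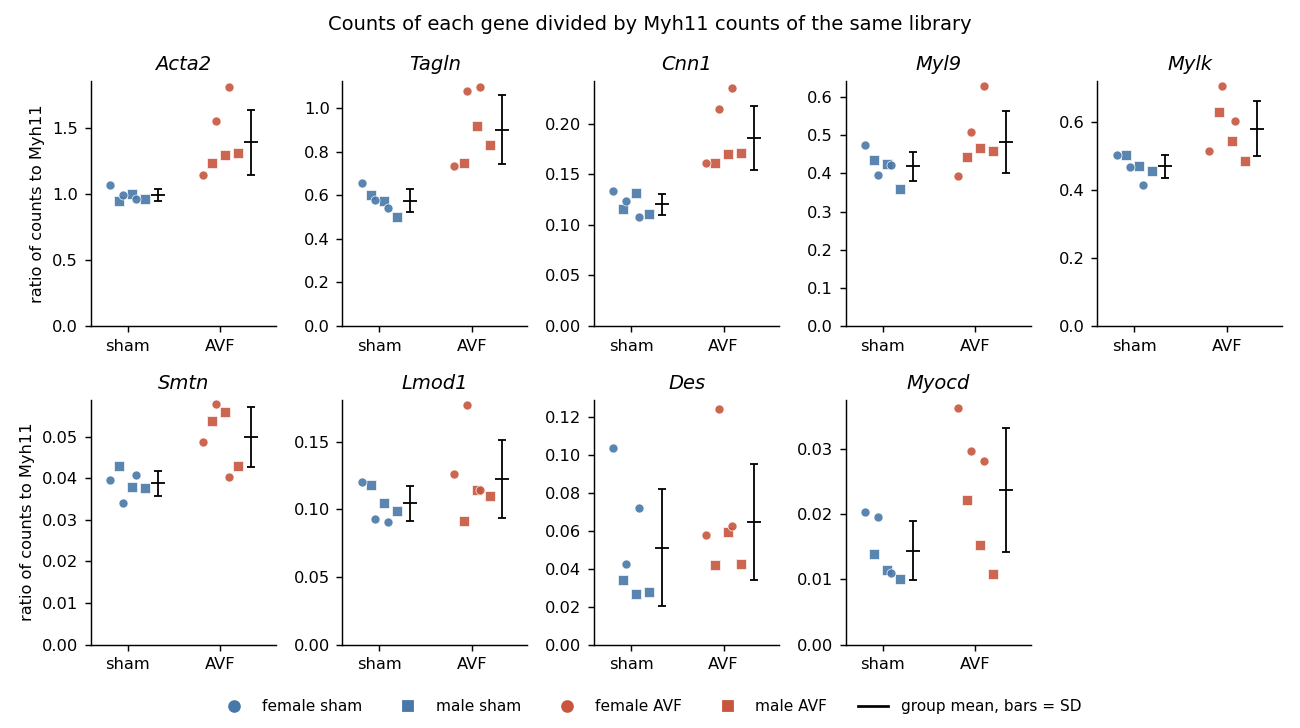
Counts of each of 9 contractile genes divided by the Myh11 counts of the same library (linear axes from 0), in sham and AVF, with circles for female and squares for male mice and black bars for the mean and SD. For Acta2, Tagln and Cnn1 all 6 AVF libraries lie above all 6 sham libraries, and for the other 6 genes the groups overlap.

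Most of the list varied together between mice of one group. After the group means were taken out, the log2 values of each gene were set against the mean of the other 9 over the 12 libraries. Pearson's r was 0.944 for Cnn1, 0.931 for Tagln, 0.923 for Acta2, 0.904 for Myl9, 0.890 for Mylk, 0.863 for Myh11, 0.825 for Lmod1 and 0.709 for Smtn. It was 0.414 for Myocd and 0.028 for Des, which stood apart from the rest. These are descriptions, since the libraries share the depth and tissue makeup of each mouse. Female AVF 3 had the highest AVF value in 6 of the 10 genes and female AVF 2 the lowest in 7. In sham, male sham 3 was highest in 5 and male sham 2 in 3, and female sham 3 was lowest in 9. The coefficient of variation ran from 16.9% (Mylk) to 45.9% (Myocd) in AVF and from 20.7% (Myl9) to 54.2% (Des) in sham. Summed over the 10 genes, AVF libraries held 3078 to 6412 CPM and sham libraries 3516 to 6361 CPM.

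The tested genes outside the list that followed it most closely, by Pearson's r with the mean of the 10 over the 12 libraries after the group means were taken out, were Ppp1r12b (0.965), Csrp1 (0.955), Fmod (0.940), Mprip (0.933) and Map3k7cl (0.928). Ppp1r12b is a targeting subunit of myosin phosphatase, Csrp1 a LIM domain protein of the actin cytoskeleton, Fmod the small matrix proteoglycan fibromodulin, and Mprip a protein that binds myosin phosphatase. Ppp1r12b, Csrp1 and Mprip also stand in the partner lists below. Of the 5, Ppp1r12b, Csrp1 and Mprip did not pass in AVF against sham, with log2 fold changes of 0.16, -0.06 and 0.21. Fmod was higher in AVF by 1.15 on the log2 scale (adjusted p = 0.0311 by edgeR) and Map3k7cl by 1.10 (adjusted p = 0.0013 by edgeR).

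Sex was compared within AVF and within sham in 1 fit with 4 groups of 3 mice over 22163 genes. Female against male AVF passed 0 of the 10 genes, against 0.0226% of all tested genes, and female against male sham 0, against 0.0451%. The difference of the AVF effect between the sexes (the interaction) passed 0 of the 10 and 0% of all tested genes. DESeq2 also passed 0 of the 10 in each, and of all 21803 genes it passed 48 in AVF, 162 in sham and 5 in the interaction. Its counts at an unadjusted p under 0.05 were 1 of the 10 in AVF (Myocd), against 4.67% of all, 1 in sham (Des), against 8.24%, and 0 in the interaction, against 4.90%. With edgeR, those counts were 0 for AVF, against 4.53% of all, 1 for sham, against 7.58%, and 0 for the interaction, against 4.82%. The 1 gene was Des. It was at 49.4, 69.2 and 125.7 CPM in the female sham veins and at 34.8, 41.6 and 49.5 CPM in the male ones. The 2 higher female values again belong to the libraries with heart and skeletal muscle RNA. The log2 difference was 0.98 (SE 0.29, interval 0.34 to 1.61, adjusted p = 0.534 by edgeR), and 0.49 (SE 0.22) without female sham 1. In AVF, Myocd was at 42.7, 16.8 and 32.1 CPM in females and at 21.7, 17.5 and 14.05 CPM in males, a log2 difference of 0.75 (SE 0.35, interval -0.01 to 1.51, adjusted p = 0.979 by edgeR). With 3 mice in each group the intervals of all 10 genes were wide, and those of the interaction reached from -1.53 for Des to 1.59 for Myocd.

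To place the 10 genes among their partners, 5 further lists of 107 genes were counted, of which 106 were tested and 2 (Klf4 and Myh10) stood in more than 1 list. All 5 lists were chosen with earlier results of these data known, so an excess over the background is not independent of these data. Each list is set beside the background of 8.63% of all tested genes higher and 5.13% lower in AVF. In all 27 of these genes were higher and 6 lower, and 10 of the higher ones are in the modulated list below. The part of cells other than smooth muscle in the values of these 5 lists was not tested. Of the 26 genes of the thin filament and its anchors, 8 were higher and 0 lower, with a median log2 fold change of 0.22. Palld, a scaffold that bundles actin, rose from 176 to 276 CPM in sham to 336 to 441 in AVF, with no overlap (log2 fold change 0.76, SE 0.12, adjusted p = 0.002). Pdlim3, a protein that binds α-actinin, was at 64.1 to 138 CPM in AVF and 30.1 to 58.3 in sham (1.01, SE 0.21, adjusted p = 0.00887). Vcl, vinculin, the link from actin to the membrane, was at 240 to 342 CPM in AVF and 182 to 270 in sham (0.48, SE 0.11, adjusted p = 0.0179). Caldesmon (Cald1), α-actinin 1 (Actn1), Actg2, Pdlim7 and supervillin (Svil) also rose. Without female sham 3 the count was 5, where 9.12% of all tested genes passed in either direction, against 13.8% in the main fit. Without both female sham 1 and female sham 3 it was 2 (Palld and Pdlim3), where 4.55% of all tested genes were higher. The log2 fold changes of the other 6 stayed between 0.41 and 0.83 there.

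The closest relatives of 2 of the 10 genes are in these counts or near them. Actg2, the other smooth muscle actin, whose protein is almost the same as that of Acta2, was at 133 to 305 CPM in AVF and 69.6 to 136 in sham, with a log2 fold change of 0.84 (SE 0.21, adjusted p = 0.0237). Without female sham 3 its log2 fold change was 0.78 (adjusted p = 0.0501 by edgeR), and without both female sham 1 and female sham 3 it was 0.83 (adjusted p = 0.08 by edgeR). Acta1, skeletal muscle actin, was at 246 CPM in female sham 3 and at most 8.61 CPM in any other library, and Actc1, cardiac actin, was at 161 CPM in female sham 1 and 30.1 to 92.0 CPM elsewhere. Reads shared between these actins are split by estimation, so a part of each count is uncertain. Myl12a, a non-muscle relative of Myl9, rose with a log2 fold change of 0.48 (SE 0.10, adjusted p = 0.00876), and Myl12b was at 0.12 (SE 0.08, adjusted p = 0.342).

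Of the 20 genes of myosin and its regulation, 3 were higher and 0 lower, with a median of 0.16. Beside Myl12a they were Myh9, non-muscle myosin heavy chain, at 0.42 (SE 0.09, adjusted p = 0.0137) and Rock2, a kinase that inhibits myosin phosphatase, at 0.32 (SE 0.09, adjusted p = 0.0373). Myh9 was at 263 to 372 CPM in AVF and 216 to 252 in sham, with no overlap. Of 19 transcription genes tested, 4 were higher and 0 lower, with a median of 0.14. Heyl, a target of Notch signaling, was at 57.1 to 91.5 CPM in AVF and 24.0 to 42.3 in sham (1.16, SE 0.17, adjusted p = 0.0012). Csrp2, a LIM protein known to work with serum response factor, was at 90.8 to 272 CPM in AVF and 51.6 to 84.7 in sham (1.22, SE 0.22, adjusted p = 0.00479). Gata6 was at 0.50 (SE 0.14, adjusted p = 0.0314), and Tead1 also rose. The count of 4 fell to 2 without female AVF 3, without male sham 1, without female sham 3, and without both female sham 1 and female sham 3. In that order, 10.1%, 9.15%, 9.12% and 6.19% of all tested genes passed in either direction, against 13.8% in the main fit. Gata6 and Rock2 each missed the threshold in 6 of the 12 fits that left out 1 library. The factors at the CArG box did not pass. Srf was at -0.04 (SE 0.12, interval -0.31 to 0.23), Mrtfa at 0.18 (SE 0.13), Mrtfb at 0.02 (SE 0.13), and the factors known to oppose myocardin, Klf4 and Elk1, at 0.09 (SE 0.15) and 0.11 (SE 0.08), with adjusted p-values of 0.354 to 0.941.

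Of the 27 genes of calcium handling, channels and receptors, 2 were higher and 6 lower, with a median of -0.15. The 6 lower were Pln, Itpr1, Irag1, Adra1a, Cacna1h and Gucy1a1. Cacna1h rested on 12 to 31 counts in each AVF library. Adra1a was at 7.12 and 7.62 CPM in male sham 2 and male sham 3, where the fat marker Ucp1 was at 23.0 and 78.1 CPM. In the other sham libraries Adra1a was at 16.3 to 25.2 CPM and Ucp1 at 247 to 1089 CPM. In AVF, female AVF 1 and male AVF 1, with 97.1 and 88.3 CPM of Ucp1, held 9.28 and 9.10 CPM of Adra1a. Female AVF 2, with the most Ucp1 in AVF (121 CPM), held 3.95 CPM of Adra1a. The remaining AVF libraries, with 1.69 to 32.7 CPM of Ucp1, held 3.35 to 4.32 CPM of Adra1a. The part of fat in the Adra1a values was not tested. Pln, phospholamban, which restrains the calcium pump, was at 2.25 to 5.78 CPM in AVF and 6.57 to 36.0 in sham, with a log2 fold change of -1.81 (SE 0.39, adjusted p = 0.0122). Its highest value was in female sham 1, the library with heart muscle RNA, and without female sham 1 and female sham 3 its log2 fold change was -1.24 (SE 0.24, adjusted p = 0.0168). Itpr1, the calcium release channel opened by inositol trisphosphate, was at 83.4 to 131 CPM in AVF and 136 to 169 in sham, with no overlap (-0.49, SE 0.11, adjusted p = 0.0135). Irag1, which couples the nitric oxide and cGMP pathway to that channel, was at 66.9 to 115 CPM in AVF and 92.1 to 169 in sham (-0.71, SE 0.16, adjusted p = 0.0136), and at -0.53 (adjusted p = 0.0652) without female sham 1 and female sham 3. Rgs5, a regulator of G protein signaling of mural cells, was at 1096 to 2862 CPM in AVF and 448 to 1121.5 in sham (1.39, SE 0.26, adjusted p = 0.00561), and Trpc6, a cation channel, was at 3.66 to 6.80 CPM in AVF and 1.61 to 3.34 in sham (1.06, SE 0.20, adjusted p = 0.00601). Without male AVF 2 and female AVF 2, 3 of the 6 lower genes passed, where 1.96% of all tested genes were lower. Without female sham 1 and female sham 3, 2 did (Pln and Itpr1), where 1.64% of all tested genes were lower.

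Of 16 genes linked to the modulated state of smooth muscle, 10 were higher and 0 lower, with a median of 0.70. Like the others, this list was chosen with earlier results of these data known. The study had already reported Cd44, Timp1 and type VIII collagen as higher in AVF, so the count of 10 was in part known beforehand. Tnfrsf11b, osteoprotegerin, was at 7.66 to 23.6 CPM in AVF and 0.921 to 2.39 in sham, with a log2 fold change of 3.49 (SE 0.30, adjusted p = 6.56e-05). Tpm4, a tropomyosin of non-muscle actin filaments, was at 486 to 688 CPM in AVF and 282 to 369 in sham (0.87, SE 0.10, adjusted p = 0.00036). Fn1, fibronectin, was at 2182.5 to 5178 CPM in AVF and 715 to 1215 in sham (1.75, SE 0.21, adjusted p = 0.00036). Col8a1, Mgp, Cd44, Timp1, Vim and Thbs1 were among the others that rose. Klf4, Spp1, Lgals3, Ly6a, S100a4 and Myh10 did not pass. The count was 9 without male AVF 2 and female AVF 2, where 5.72% of all tested genes were higher. It was 9 without female sham 1 and female sham 3, where 4.55% were. Fibroblasts and macrophages are also known to express several of these genes, and most of their markers moved the same way. Of 10 fibroblast markers 7 were higher and 0 lower, with summed levels of 19739 to 32591 CPM in AVF and 9246 to 17877 in sham. Much of these sums came from the collagen genes Col1a1 and Col1a2. Their means were 8287 and 10093 CPM in AVF and 3284 and 4435 CPM in sham. Pdgfra, Dcn and Dpep1 did not pass, with log2 fold changes of 0.04, 0.12 and -0.28. Of 8 macrophage markers 7 were higher and 0 lower, at 1070.5 to 1692.5 CPM in AVF and 546 to 912 in sham. Of 12 endothelial markers 0 were higher and 1 lower. The part of those cells in the counts of the modulated list was not tested.

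**Figure D4:**
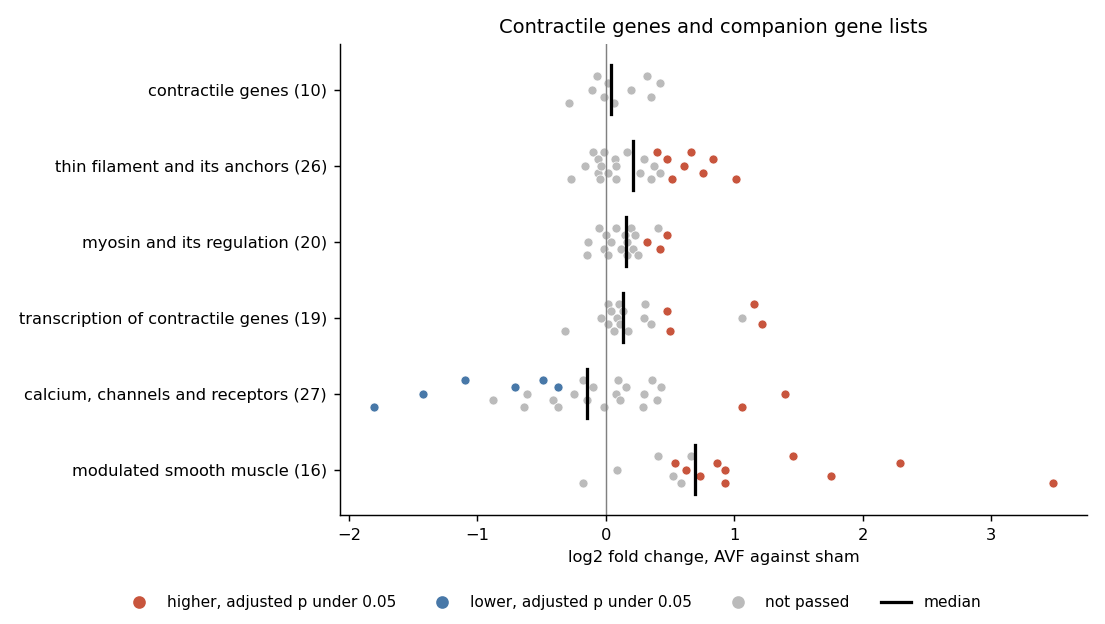
Log2 fold change of AVF against sham for the 10 contractile genes and for each tested gene of the 5 companion lists (number of genes in parentheses), colored by whether the gene was higher, lower or did not pass, with the median of each list as a black line. The 10 contractile genes lie between -0.28 and 0.42 with none passed. All lists were chosen with earlier results of these data known. In the modulated list 10 of the 16 genes were higher.

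Other tissue around the vein also entered these libraries, and its level is given beside the muscle genes. Summed over 8 neuron and Schwann cell markers, AVF libraries held 182 to 620 CPM and sham libraries 411 to 999 CPM, and over 10 fat markers 1054 to 2716 CPM and 1155 to 3149 CPM. T and B cell markers were at 9.32 to 17.7 CPM in AVF and 8.09 to 16.5 in sham, and mesothelial markers at 4.58 to 47.6 CPM in AVF and 1.93 to 28.8 in sham. In each of these sums the groups overlapped. Single markers that fell were Cidea and Cox8b of the 10 fat markers and Myl1 of the 12 skeletal muscle markers. Without male AVF 2 and female AVF 2, 1 fat and 0 skeletal muscle markers were lower, against 1.96% of all tested genes. Without female sham 1 and female sham 3, 0 of either were, against 1.64% of all. All 10 hepatocyte markers were higher in AVF, through the 2 libraries named above, and without them 0 of 10 passed. Of 12 smooth muscle and pericyte markers 3 were higher (Rgs5, Pdgfrb and Actg2). Without female sham 1 and female sham 3, 1 was, where 4.55% of all tested genes were higher. The part of any of these tissues in the values of the 10 genes was not tested.

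**Figure D5:**
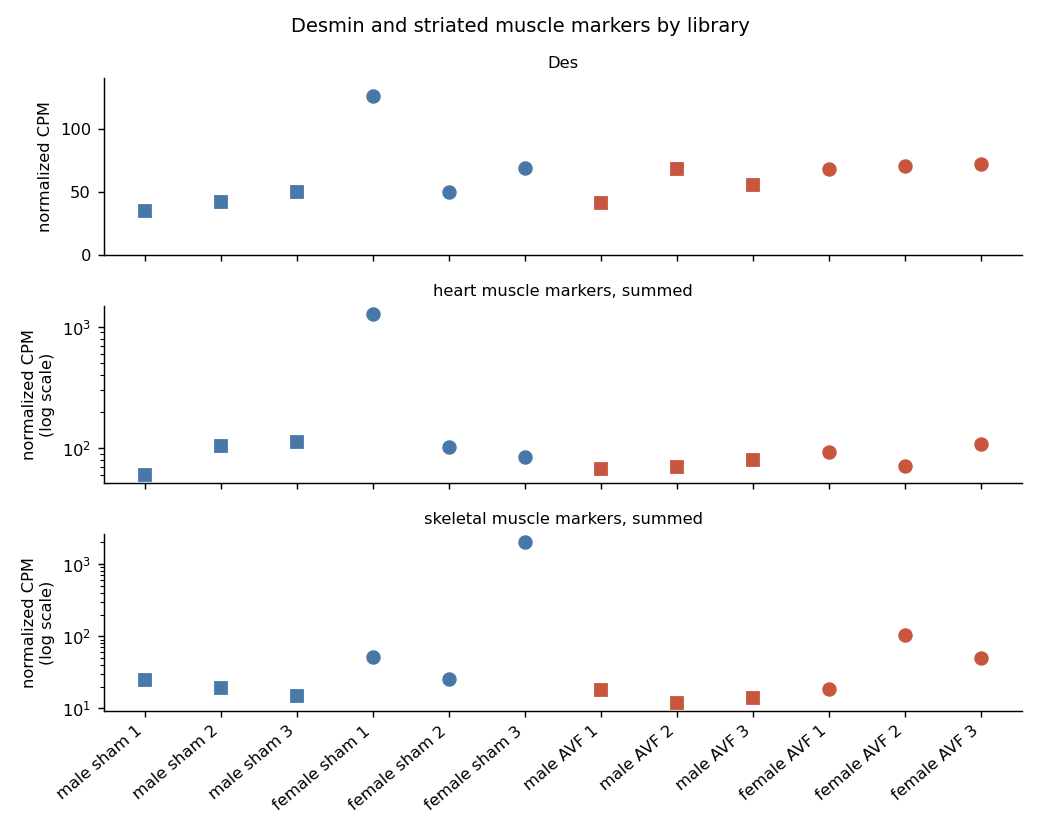
Normalized CPM of Des (linear axis) and the summed normalized CPM of 12 heart muscle and 12 skeletal muscle markers (log axes) in each of the 12 libraries, with circles for female and squares for male mice. The highest Des value of the sham group, 125.7 CPM in female sham 1, stands with 1264 CPM of heart markers, and the next, 69.2 CPM in female sham 3, with 2003 CPM of skeletal markers. Outside female sham 1 the heart sums include 30.1 to 92.0 CPM of Actc1 and at most 0.47 CPM of Myh6.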

How the data were processed

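Poly-A RNA of 12 IVC was sequenced as stranded libraries. The authors cleaned the reads by PRINSEQ and Trimmomatic (0.39), mapped them with STAR (2.7.7a) on GRCm39 using Ensembl release 106, and deposited RSEM (1.3.3) expected counts per gene, without normalization. Versions are from the submitters' processing notes. Multi-mapping reads are shared out by RSEM, which affects near-identical actin genes. Of the values 5.72% to 7.75% per library were not whole, and all were rounded. Names and exon lengths came from GENCODE M39, a later release than that of the files, on the same build (54749 of 55414 identifiers named).

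The 15912 genes above 1 CPM in 2 or more libraries were fitted with edgeR 4.0.16 in R 4.3.3 (TMM scaling, quasi-likelihood F test, Benjamini-Hochberg adjustment, threshold 0.05). Sex fits used genes with more than 12 counts in all (22163). Normalized CPM are counts scaled to TMM-adjusted library size, and fold changes are on the log2 scale of that fit. Standard errors are the fold change divided by the square root of F, and intervals are 95%. The alternatives included the exact test of edgeR, DESeq2 1.42.0, other size factors and filters, and left-out libraries. The fits were tested on simulated counts. The contractile genes and all lists were chosen with earlier results of these data known. Named genes were all 10 members, the 3 per direction with the lowest adjusted p in each companion list, Srf, Mrtfa, Mrtfb, Klf4, Elk1, the actin and light chain relatives, the 5 genes most like the list, and marker genes. Not every gene of the lists is reported by name. The 12 library pairs compared within groups differed by more than sampling noise. Depth was 15177881 to 22717423 counts.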

Additional observations from a re-analysis of the deposited data

Results flagged for a closer look

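Within a group of 6 libraries, a value was singled out when its gap to the nearest other library, divided by the range of the group, exceeded Dixon's critical value at the 95% level. This was examined in 140 groups of values, and chance alone marks about 1 in 20 groups. It marked 14 values. Among the 10 contractile genes it marked Mylk in female AVF 2, at 398 CPM with the next AVF library at 605 CPM. Des in female sham 1 came close to the criterion but did not exceed it. Female AVF 2 also gave the lowest AVF value of Actn1 (161 CPM, next 225) and of Vcl (240 CPM, next 311), and it held 9428 CPM of hepatocyte markers, with 2986.5 CPM in male AVF 2 as the next.

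In sham, the heart muscle markers of female sham 1 (1264 CPM, next 112) and its Pln level (36.0 CPM, next 11.9), the skeletal muscle markers of female sham 3 (2003 CPM, next 52.2) and its Acta1 level (246 CPM, next 0.72), and the mesothelial markers of female sham 2 (28.8 CPM, next 5.04) were marked. In AVF, Csrp2 (272 CPM, next 144) and Thbs1 (776 CPM, next 495) were marked in female AVF 3, and Fn1 (5178 CPM, next 3122) and Col8a1 (359 CPM, next 217) in male AVF 3. The share of ribosomal RNA in female AVF 1 was marked as well (46.0%, next 12.6%). What lies behind these values was not tested.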

How the results depend on the processing

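The number of contractile genes that passed in AVF against sham was 0 under each alternative that was run (the exact test of edgeR, DESeq2, relative log expression size factors, both other filters, unrounded counts, a robust fit, sex in the model, the replicate block, no ribosomal RNA genes, a 2-fold minimum, and each left-out set of libraries). Over all genes, 2190 passed in the main comparison, 3402 by DESeq2, 1222 without male AVF 2 and female AVF 2, 985 without female sham 1 and female sham 3 (chosen after the data were seen), and 1330 to 2546 with 1 library left out. Among the companion genes, 27 were higher and 6 lower. Without male AVF 2 and female AVF 2 the lower ones were 3, without female sham 1 and female sham 3 they were 17 higher and 2 lower, and with at least a 2-fold change 9 higher and 3 lower. With 1 library left out they ran from 21 to 29 higher and from 4 to 6 lower. The log2 difference of the Acta2 to Myh11 ratio ran from 0.40 to 0.53 with 1 library left out.

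Log2 fold changes near 0 turned sign. Des was at -0.0013 with the filter of more than 12 counts and at -0.072 without male AVF 2 and female AVF 2, where Myl9 was at 0.063, Mylk at 0.086 and Srf at 0.0495. Srf was at 0.019 without female sham 1 and female sham 3. With 1 library left out, Smtn ran from -0.0091 to 0.16, Des from -0.10 to 0.35, Myl9 from -0.20 to 0.051, Mylk from -0.10 to 0.086, Srf from -0.12 to 0.010, Mrtfb from -0.0496 to 0.075, Klf4 from -0.015 to 0.15, and Myocd in female against male sham from -0.014 to 0.52. The cause was not tested.

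Mice share replicate numbers across groups only as names. The correlations of same-numbered mice ran from -0.144 to 0.175, with 3 of 6 over 0.1, and 3 of 6 AVF libraries correlated best with their own number. With the replicate block, 1980 genes passed, 0 of the 10 contractile genes, and 29 companion genes higher and 5 lower, with Mylk at 0.0013. The mean difference of the Acta2 to Myh11 ratio over the 6 pairs is 0.48, which equals the unpaired difference by construction. The exact sign-flip permutation p was 0.0312, the smallest that 6 pairs allow, and is not a separate check.

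With 6 mice a group, the 95% intervals of the 10 genes reached up to 0.76 for Tagln, 0.77 for Cnn1 and 1.03 for Myocd and down to -0.73 for Myh11 on the log2 scale.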
